A study of Rattus norvegicus with 4 samples.

Results

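The genes described here are 3 alpha-defensins (Defa10, Defa5 and Np4) and 6 other products of neutrophil granules or cytosol (S100a8, S100a9, Mpo, Camp, Ltf and Lcn2), 9 of the 19311 named genes on the array. They were selected by name, and the alpha-defensins for a higher level in growth-restricted than in control islets, so their IUGR over control ratios are given as a description without a test. The file's gene names held 8 of the 9, and Defa5, filed there as Defa, was found through its RefSeq accession. Each gene had 1 probe, and 8 genes passed the filter of being well above background in at least 2 channels of a group. Ltf did not pass.

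Islets were isolated from 14-day-old offspring of Sprague Dawley rats. In the intrauterine growth restriction (IUGR) group both uterine arteries of the dam had been ligated at embryonic day 18, and control dams had undergone sham surgery. Each of 4 two-colour arrays held 1 IUGR and 1 control sample: array 1 IUGR replicate 2 and control replicate 1, array 2 IUGR replicate 1 and control replicate 2, array 3 IUGR replicate 4 and control replicate 3, and array 4 IUGR replicate 3 and control replicate 4. IUGR was in Cy5 on arrays 1 and 2 and in Cy3 on arrays 3 and 4. The labels give neither the litters nor the number of pups behind a sample, so spread between samples may hold both. All 8 islet markers were well above background in all 8 channels, as were all 8 acinar markers, which belong to the exocrine pancreas around the islet. In whole-islet RNA, fewer cells of a type and less RNA per cell cannot be told apart.

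Neutrophils are short-lived blood cells that kill microbes with proteins stored in granules. Azurophil granules, filled early in maturation in the bone marrow, hold myeloperoxidase (Mpo) and alpha-defensins, which are small cysteine-rich peptides that disrupt microbial membranes. Specific granules, filled later, hold cathelicidin (Camp), lactoferrin (Ltf) and lipocalin 2 (Lcn2), and the cytosol is rich in the calcium-binding pair S100a8 and S100a9. Other alpha-defensins are made by Paneth cells of the small intestine.

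The alpha-defensin genes are close relatives, so the probe letters matter to how separately they are read. The probes below are the sense strand, 5′ to 3′, at rn4 positions chr16:75335083-75335142 (RatNP-3b), chr16:75101509-75101568 (Defa7) and chr16:75304742-75304801 (Defa10), all on the minus strand. RatNP-3b and Defa7 are alpha-defensins that are not among the 9 genes. Capitals in the first pair mark bases that are identical when the probes are aligned without gaps, and capitals in Defa10 mark its longest run shared with RatNP-3b.
RatNP-3b: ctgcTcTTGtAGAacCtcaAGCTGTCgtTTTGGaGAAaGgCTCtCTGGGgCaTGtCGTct
Defa7: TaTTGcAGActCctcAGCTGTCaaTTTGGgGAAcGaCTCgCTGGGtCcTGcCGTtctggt
Defa10: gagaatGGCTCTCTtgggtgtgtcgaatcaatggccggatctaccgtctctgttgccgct
RatNP-3b and Defa7 matched at 38 of 56 aligned bases. The Defa10 and RatNP-3b probes shared no run longer than 8 bases. Each alignment was the shift with the most identical bases, which can pass over a shorter and closer overlap. The counts of identical bases therefore do not rank the pairs. Probes were compared with each other and not with whole transcripts. The probes of Defa5 and Defa11, another alpha-defensin outside the 9 genes, matched at 33 of 41 aligned bases. Defa10 and Defa11 shared a run of 10 bases. Hybridisation of one defensin's transcript to another's probe was not tested.

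The S100 pair lies on chromosome 2, at rn4 chr2:182962328-182962387 on the plus strand (S100a8) and chr2:182987647-182987706 on the minus strand (S100a9). Their probes are shown because the 2 genes gave nearly the same profile, and capitals mark their longest shared run, of 9 bases.
S100a8: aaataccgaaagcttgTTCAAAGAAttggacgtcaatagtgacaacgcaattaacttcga
S100a9: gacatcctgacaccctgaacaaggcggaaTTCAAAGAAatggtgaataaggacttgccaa

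The 3 alpha-defensins had higher levels in IUGR than in control islets on arrays 2, 3 and 4. On array 1 the ratio was 0.34 for Defa10 and near 0 for Defa5 and Np4. Their mean log2 ratios lay between 1.47 and 1.55, against a median of 0.014 over all 20183 genes or unnamed probes tested. With limma and Benjamini-Hochberg adjustment, 0 of those 20183 were called between IUGR and control (0%), 2762 had an unadjusted p under 0.05 (469 to 6237 when 1 array was left out), and 52.9% had a mean ratio above 0. All levels below are normalized log2 intensities, which are compared between samples and not between genes.

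Defa10 stood at 9.61, 12.07, 10.13 and 10.88 in IUGR replicates 1 to 4. In control replicates 1 to 4 it stood at 11.73, 8.65, 8.89 and 7.20. Control replicate 1 lay within the IUGR range, and the other 3 control samples lay below every IUGR sample. The log2 ratios on arrays 1 to 4 were 0.34, 0.96, 1.99 and 2.92, with a mean of 1.55 ± 1.14 (SD, n = 4), a 2.94-fold difference.

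Defa5 stood at 11.25, 13.67, 11.65 and 12.33 in IUGR replicates 1 to 4 and at 13.69, 10.06, 10.56 and 8.72 in control replicates 1 to 4. Control replicate 1 was the highest of all 8 samples, and the other 3 control samples lay below every IUGR sample. The ratios were -0.017, 1.19, 1.76 and 2.93 on arrays 1 to 4, with a mean of 1.47 ± 1.23 (SD, n = 4).

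Np4, whose product is a neutrophil defensin, stood at 10.45, 12.96, 10.99 and 11.57 in IUGR replicates 1 to 4. Its levels were 13.00, 9.21, 9.61 and 8.03 in control replicates 1 to 4, so control replicate 1 was again the highest sample and the other 3 were lower than every IUGR sample. The ratios were -0.042, 1.24, 1.96 and 2.96, with a mean of 1.53 ± 1.26 (SD, n = 4). For each of the 3 genes the ratio of array 4 was the largest and that of array 1 the smallest. How many of all tested genes had 3 control samples below every IUGR sample was not counted. Here and for the genes below, this order is only a description.

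**Figure D1:**
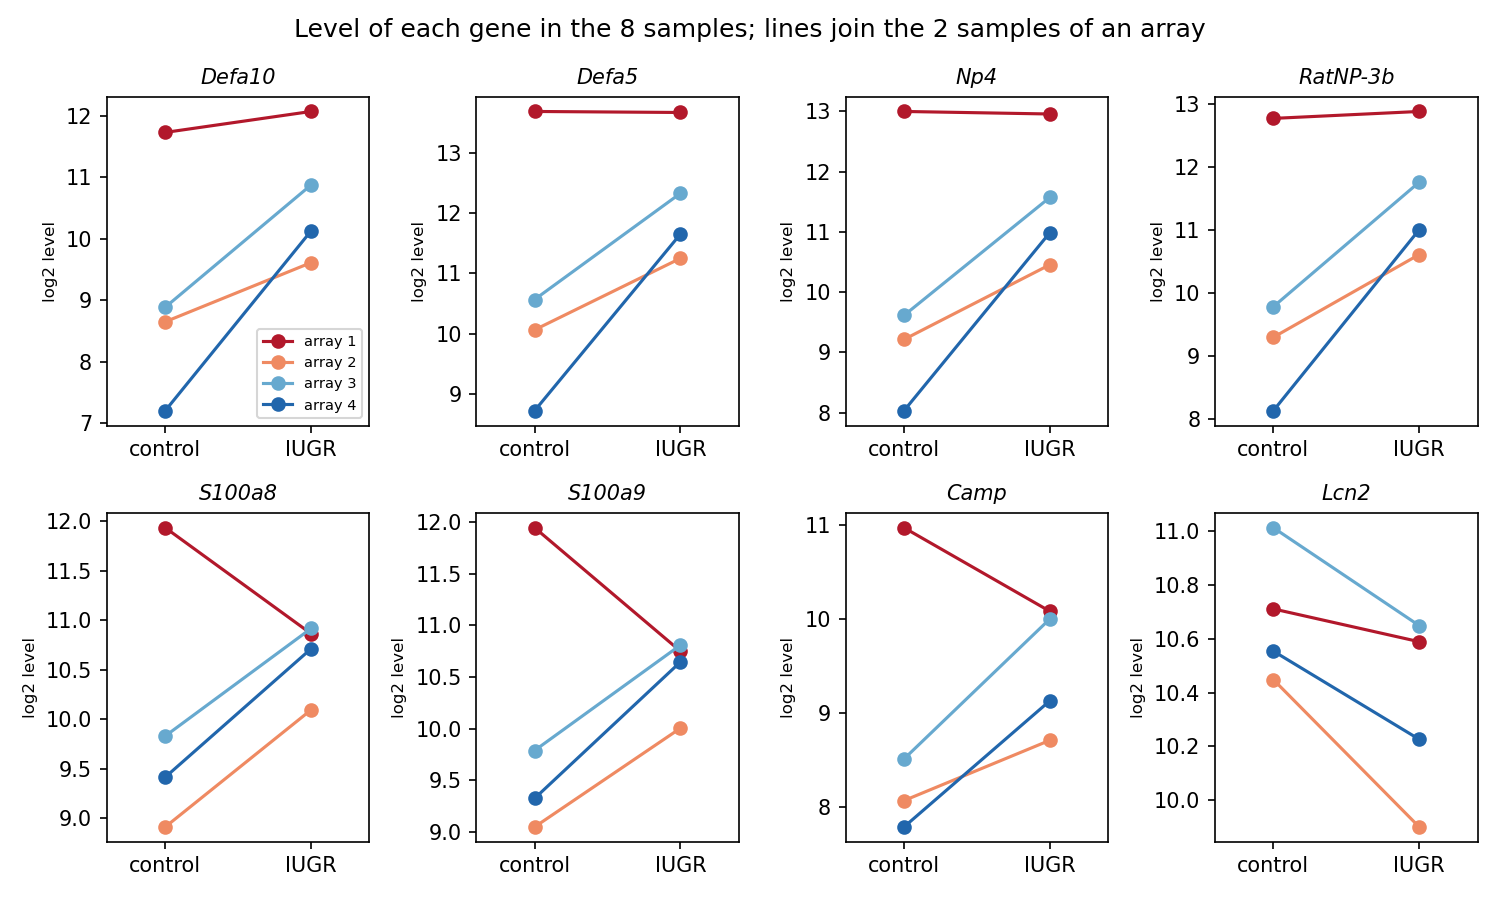
Normalized log2 level (y axis) of 8 genes in control and IUGR samples (x axis), with 1 panel per gene and lines that join the 2 samples of an array. In Defa10, Defa5, Np4 and RatNP-3b the array 1 samples sit at the top in both groups, and in S100a8, S100a9 and Camp control replicate 1 on array 1 is the highest of the 8 samples.

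Among the 8 other alpha-defensin genes on the array, 6 passed the filter and 4 of these had a mean ratio above 0. None of the 6 was called, 3 had an unadjusted p under 0.05, and their median ratio was 0.16. RatNP-3b, another neutrophil defensin, followed the 3 described above, with ratios of 0.11, 1.31, 1.98 and 2.87 on arrays 1 to 4 and a mean of 1.57 ± 0.25 (moderated SE; limma adjusted p = 0.339). Defa11 had ratios of 0.80, 0.13, 0.55 and 0.70, all above 0, with a mean of 0.55 ± 0.13 (moderated SE; limma adjusted p = 0.339). Of all genes or unnamed probes tested, 20.7% had the same sign on all arrays. Defa7 had ratios of -0.17, -0.069, 0.64 and 0.81 and a mean of 0.30 ± 0.080 (moderated SE; limma adjusted p = 0.339). Here and below, the moderated SE comes from the fit with the dye term. It leaves out the spread between the dye orientations and is not comparable with the SD given for the 9 genes. The SD over the 4 arrays was 1.16 for RatNP-3b, 0.29 for Defa11 and 0.49 for Defa7. Defa9, Defa24 and Defal1 passed the filter through control channels, and Defa6 and Defa8 were not well above background in any channel.

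Promoter sequence was at hand for 6 of the 9 genes, from RefSeq on GRCr8, and for RatNP-3b and Defa11. Because Np4, RatNP-3b and Defa11 lie together on chromosome 16 and had ratios above 0, the stretch around the one motif match that they share is shown. TATAAA, TTNNGCAA (a pattern of C/EBP factors) and GAGGAA (a pattern of PU.1) were searched on both strands of 300 bases per gene, and capitals mark TTNNGCAA read on the opposite strand. The windows are chr16:77199699-77199806, chr16:77249053-77249160 and chr16:77238122-77238229, all on the minus strand.
Np4: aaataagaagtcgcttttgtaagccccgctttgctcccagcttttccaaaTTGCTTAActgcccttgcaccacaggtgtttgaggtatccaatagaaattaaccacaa
RatNP-3b: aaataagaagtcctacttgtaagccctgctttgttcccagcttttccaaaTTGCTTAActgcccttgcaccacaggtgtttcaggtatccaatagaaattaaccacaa
Defa11: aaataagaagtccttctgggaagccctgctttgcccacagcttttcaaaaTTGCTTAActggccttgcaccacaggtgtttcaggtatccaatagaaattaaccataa
Np4 and RatNP-3b were identical at 101 of the 108 bases, RatNP-3b and Defa11 at 99, and Np4 and Defa11 at 96. Windows this alike are not 3 separate matches to set against the share over all promoters. TTNNGCAA occurred in 10.6% of all 33469 promoters of this length, TATAAA in 14.2% and GAGGAA in 27.6%. TTNNGCAA also occurred in the Lcn2 promoter, TATAAA in that of S100a9, and GAGGAA in those of S100a9, Mpo and Lcn2. Camp and Ltf held none of the 3 patterns in this window.

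S100a8 and S100a9, which pair as calprotectin, were higher in IUGR on arrays 2 to 4 and lower on array 1. S100a8 stood at 10.09, 10.86, 10.71 and 10.92 in IUGR replicates 1 to 4 and at 11.94, 8.91, 9.83 and 9.41 in control replicates 1 to 4. Control replicate 1 lay above every IUGR sample and the other 3 control samples below every one. Its ratios were -1.07, 1.18, 1.09 and 1.30 on arrays 1 to 4, with a mean of 0.62 ± 1.13 (SD, n = 4).

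S100a9 stood at 10.01, 10.75, 10.65 and 10.81 in IUGR replicates 1 to 4 and at 11.95, 9.05, 9.79 and 9.33 in control replicates 1 to 4, the same order as S100a8. Its ratios were -1.19, 0.96, 1.02 and 1.32, with a mean of 0.53 ± 1.16 (SD, n = 4). Over arrays 2, 3 and 4 alone the plain means of the ratios were 1.19 for S100a8 and 1.099 for S100a9. Leaving out array 2, 3 or 4 in place of array 1 gave plain means of 0.40 to 0.47 for S100a8 and 0.26 to 0.38 for S100a9. Both means were smaller than their SD over the 4 arrays.

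Camp, the precursor of the antimicrobial peptide cathelicidin, stood at 8.71, 10.08, 9.13 and 10.002 in IUGR replicates 1 to 4. In control replicates 1 to 4 it stood at 10.97, 8.07, 8.51 and 7.79, so control replicate 1 was again above every IUGR sample and the other 3 were below every one. The ratios were -0.89, 0.64, 1.49 and 1.34 on arrays 1 to 4, with a mean of 0.65 ± 1.09 (SD, n = 4). The plain mean was 1.16 over arrays 2, 3 and 4, 0.65 without array 2, 0.36 without array 3 and 0.41 without array 4.

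Lcn2, which binds bacterial siderophores, went the other way and had ratios below 0 on all 4 arrays. It stood at 9.90, 10.59, 10.23 and 10.65 in IUGR replicates 1 to 4 and at 10.71, 10.45, 11.01 and 10.55 in control replicates 1 to 4, and the groups overlapped. The ratios were -0.12, -0.55, -0.36 and -0.33, with a mean of -0.34 ± 0.17 (SD, n = 4). A ratio of the same sign on all 4 arrays was seen for 20.7% of all genes or unnamed probes tested.

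Mpo, the azurophil peroxidase, was well above background in 2 of 4 IUGR channels and 1 of 4 control channels, and passed the filter through the IUGR group. It was well above background in both channels of array 1. Its levels there were 7.54 in IUGR replicate 2 and 7.54 in control replicate 1, against 6.13 to 6.40 in the other 6 samples. The ratios were -0.0072, 0.26, 0.000067 and 0.082, with a mean of 0.084 ± 0.12 (SD, n = 4). Ltf was not well above background in any of the 8 channels, and no ratio is given for it.

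**Figure D2:**
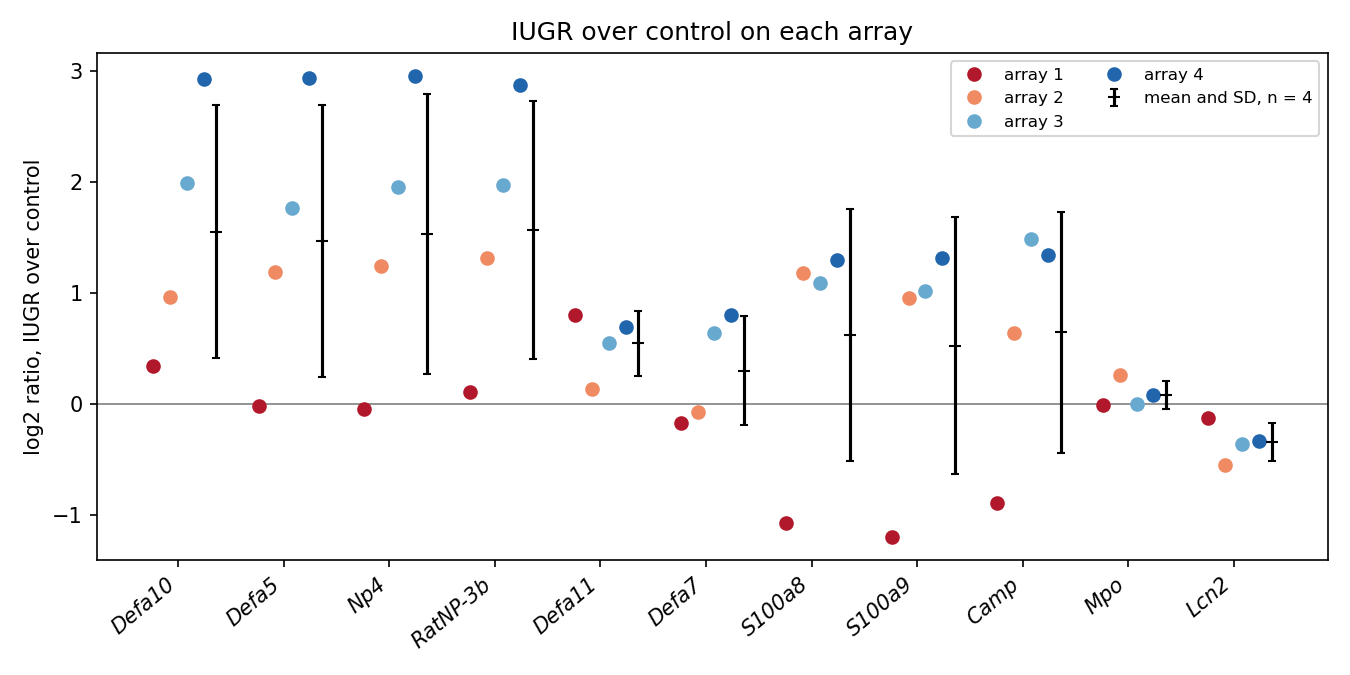
Log2 ratio of IUGR over control (y axis) for 11 genes (x axis), with 1 point per array and the mean with its SD over 4 arrays. Array 1 is the lowest point for Defa10, Defa5, Np4 and RatNP-3b, and it is below 0 for S100a8, S100a9 and Camp, whereas Lcn2 lies below 0 on all 4 arrays.

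The levels of these genes across the 8 samples fell into tight groups. Over the 8 levels, Pearson's r was 0.995 to 0.999 among Defa10, Defa5 and Np4, and RatNP-3b correlated with them at 0.997 to 0.998. S100a8 and S100a9 correlated at 0.996, and with Defa10 at 0.861 and 0.865. With Defa5, Np4 and RatNP-3b the S100 pair correlated at 0.885 to 0.901. Camp was close to both sets, at 0.941 with Defa10 and 0.953 to 0.958 with Defa5, Np4 and RatNP-3b. It correlated with S100a8 at 0.955 and with S100a9 at 0.963. Mpo correlated with Defa10 at 0.777, and Lcn2 at 0.0612. The 8 levels come from 4 arrays, and the 2 samples of an array share its spots, so these values are descriptions.

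**Figure D3:**
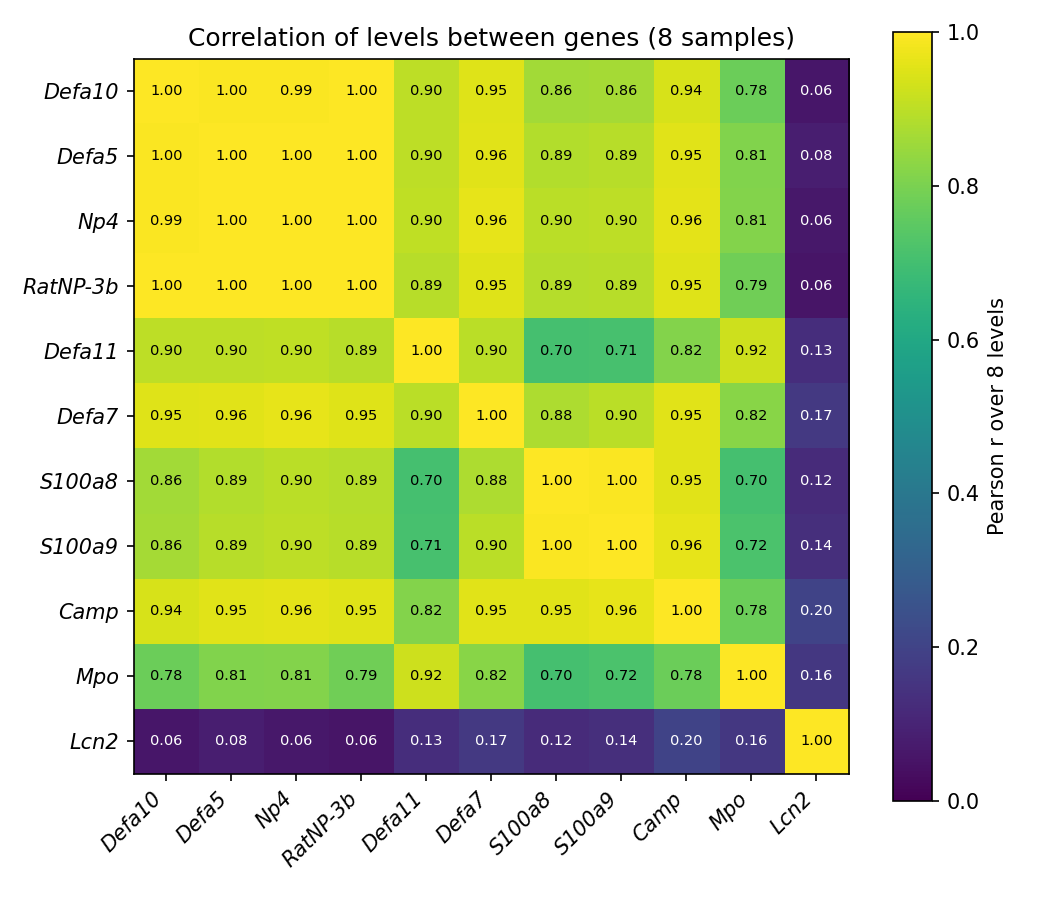
Pearson's r between the normalized log2 levels of 11 genes over 8 samples, with each cell coloured and labelled by r. Defa10, Defa5, Np4 and RatNP-3b form one block at 0.995 or higher, S100a8 and S100a9 form another, and Lcn2 is at 0.201 or lower with every other gene.

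With the 9 genes and all other alpha-defensins set aside, the 5 genes closest to Defa10 in level over the 8 samples were Dok4 (r = 0.971), Cysltr1 (0.97), Vamp3 (0.967), Sap30bp (0.963) and Fkbp15 (0.963). Cysltr1 encodes a receptor for cysteinyl leukotrienes. Their mean ratios lay between 0.088 and 0.22, far smaller than that of Defa10. The 5 closest to S100a9 were Cd177 (r = 0.978), Cd1d1 (0.971), Rbms2 (0.97), Pgk1 (0.96) and Rab31 (0.959). Cd177 encodes a surface protein of neutrophils, and it was well above background in 1 IUGR channel and 2 control channels.

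Other genes of neutrophils had ratios on both sides of 0. The lists here also hold genes that are not confined to these granules or to neutrophils. Of 8 tested genes of the azurophil list 2 had a mean ratio above 0, with a list median of -0.11. Of 15 tested specific and gelatinase granule genes 7 were above 0, with a median of -0.017, and of 20 receptor, oxidase and transcription factor genes 6 were above 0, with a median of -0.077. No gene of these 3 lists was called by limma, and 2, 3 and 4 of them had an unadjusted p under 0.05. In the same order, the lists held 10, 17 and 24 genes on the array. Of these, 5, 8 and 7 were well above background in all 8 channels. For the dimmer genes a ratio near 0 says little. Lyz2, the lysozyme of macrophages and neutrophils, had a mean ratio of -0.68 ± 0.12 (moderated SE; limma adjusted p = 0.339), with ratios of -0.048, -0.44, -0.91 and -1.31 on arrays 1 to 4. Ctsd and Serpinb1a of the azurophil list had mean ratios of 0.23 and -0.092. The serine proteases Prtn3 and Ctsg, stored with Mpo, had mean ratios of -0.12 and 0.095. Prtn3 was well above background in 3 IUGR and 4 control channels, and Ctsg in 2 and 1. In the specific granule list, Stfa2 had 0.21, Cyba, a subunit of the oxidase, had -0.017, and Slpi, a protease inhibitor, had 0.45. Among receptor, oxidase and transcription factor genes, Cebpd had -0.35, Ncf1 had -0.066 and Ncf4 had -0.10.

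Of 6 tested attractant and growth factor genes 4 had ratios above 0, with a median of 0.042. Cxcl2, a chemokine that draws neutrophils, had a mean of 0.87 ± 0.24 (moderated SE; limma adjusted p = 0.339) and Cxcl1, its relative, had -0.53 ± 0.20 (moderated SE; limma adjusted p = 0.339). On arrays 1 to 4 the ratios were 0.84, 2.06, 0.63 and -0.045 for Cxcl2. For Cxcl1 they were 0.81, -0.082, -1.07 and -1.77. Il1b had 0.014. Of 5 receptors and partners of S100a8 and S100a9, 3 were above 0 with a median of 0.060, and Cd36, Myd88 and Ly96 had 0.15, 0.25 and -0.17. Of 13 tested beta-defensins, the epithelial relatives of the alpha-defensins, 8 were above 0 with a median of 0.030. Defb1 had 0.39, Defb24 had 0.24 and Defb20 had 0.24. Of 11 tested Paneth and gut epithelial genes 6 were above 0 with a median of 0.21, and Itln1, Cdx1 and Pla2g2a had 0.32, 0.39 and 0.80. No gene of these 4 lists was called. With limma, unadjusted p was under 0.05 for 3 attractant and growth factor genes, of which 2 were above 0. It was so for 0 receptors and partners, 2 beta-defensins and 1 Paneth or gut epithelial gene. The share over all tested was 13.7%.

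Markers of other cell types also differed in level between the samples of an array. All 9 tested mast cell genes, all 5 eosinophil genes, all 6 red blood cell genes and all 8 acinar genes had mean ratios above 0, as did 9 of 11 macrophage genes and 3 of 6 monocyte genes, and none was called. With limma, unadjusted p was under 0.05 for 5 mast cell, 4 red blood cell, 9 macrophage and 1 monocyte genes. Of the 9 macrophage genes, 8 were above 0. The eosinophil and acinar lists had 0 such genes, and the share over all tested was 13.7%. The red blood cell list had array means of -0.61, 0.10, 1.45 and 1.00, the eosinophil list -0.65, -0.081, 0.53 and 0.86, and the mast cell list -0.084, 0.98, 1.36 and 0.35. On array 1 these 3 lists were below 0, where the mean over the 3 alpha-defensins was 0.094 and the S100 pair lay below 0. Cma1, Hdc and Tpsab1 of mast cells had mean ratios of 1.27, 0.18 and 0.79. Hba-a1, Hbb and Ahsp of red blood cells had 0.34, 0.63 and 0.67. Prg2, Siglec5 and Prg3 of eosinophils had 0.18, 0.15 and 0.20.

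The summed linear intensity of the mast cell list was 7610 to 19400 in IUGR and 5010 to 18500 in control samples, and that of the red blood cell list was 151000 to 362000 and 141000 to 190000. For the eosinophil list the sums were 782 to 2070 and 639 to 3690, with the highest in control replicate 1, the sample in which S100a8, S100a9 and Camp were also highest. The macrophage list ran from 13900 to 28100 in IUGR and from 9070 to 22300 in control samples, and C1qb, C1qa and Cd68 had mean ratios of 0.25, 0.30 and 0.23. Monocyte sums ran from 2400 to 4240 and from 2450 to 3740, with Fcna, Ly6c and Cd14 at -0.13, 0.074 and -0.46. Islet sums ran from 561000 to 1400000 and from 640000 to 1080000, and Ins1, Ins2 and Gcg had 0.22, 0.29 and -0.13. Acinar sums ran from 445000 to 1090000 and from 338000 to 702000, and Ctrb1, Prss1 and Amy2a3 had 0.37, 0.33 and 1.16. The part of these cell types in the alpha-defensin and S100 ratios was not tested.

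**Figure D4:**
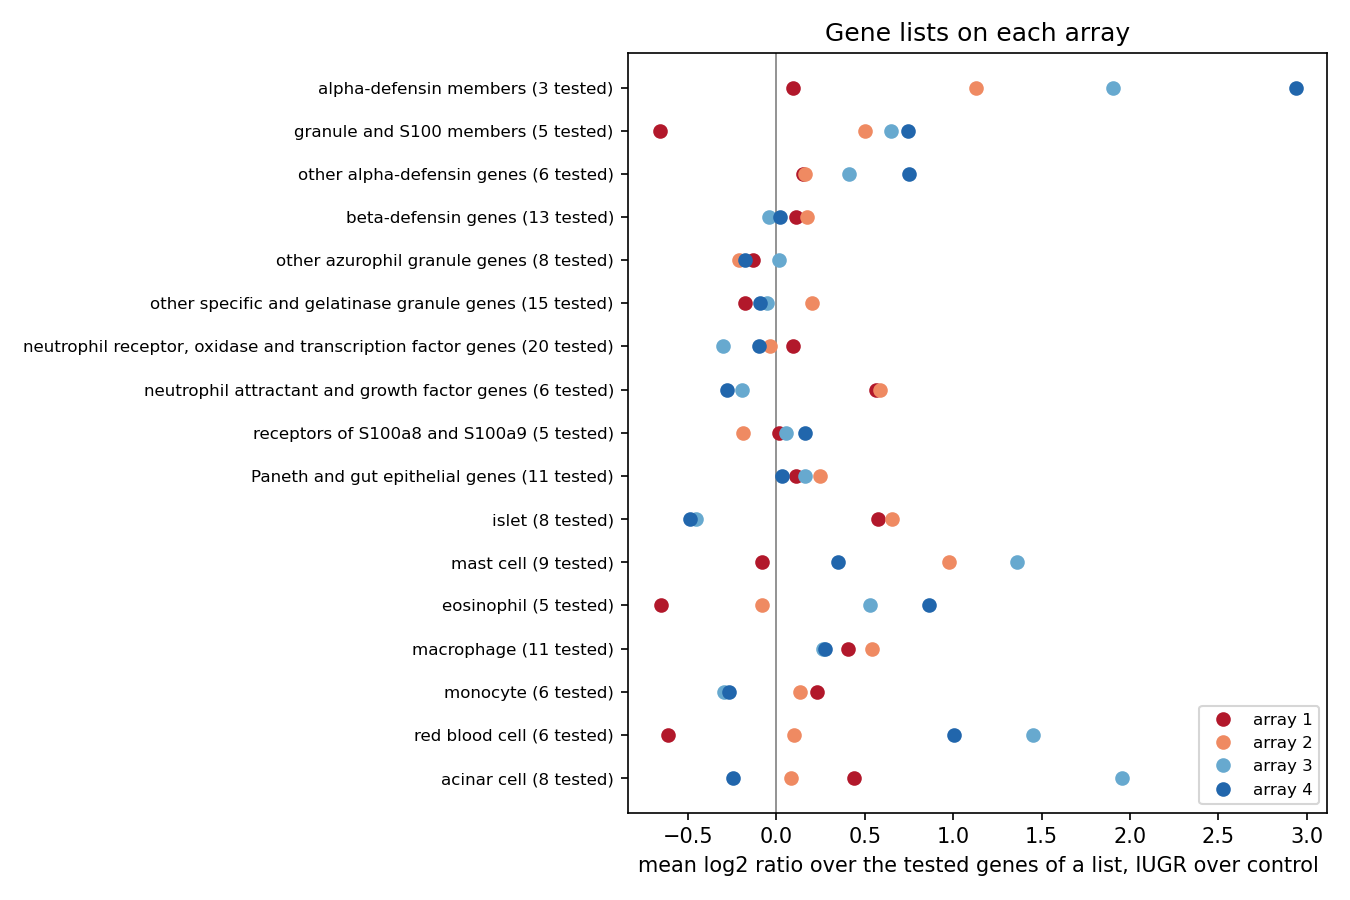
Mean log2 ratio of IUGR over control over the tested genes of each list (x axis), with 1 point per array and the number of tested genes beside each list name. The alpha-defensins reach 2.94 on array 4 and 0.094 on array 1, and the red blood cell and eosinophil lists are also lowest on array 1.

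The dye contrast was not used to choose these genes and could be tested. The 3 alpha-defensins had larger ratios where IUGR was in Cy3 than where it was in Cy5, with means of 2.46 and 0.65 for Defa10, 2.35 and 0.59 for Defa5, and 2.46 and 0.60 for Np4. With limma, none of the 8 tested genes was called for dye orientation, with adjusted p from 0.501 to 0.992, and 0 of all 20183 were called (0%). Unadjusted p was under 0.05 for Defa10, Defa5, Np4 and Camp among the 8, and for 1860 of the 20183, or 9.22%. Each orientation held different samples, so dye and sample cannot be told apart.

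Array 1 stood apart from the others in further ways. Across genes, its ratios correlated with those of arrays 2, 3 and 4 at 0.132, -0.229 and -0.303, while arrays 2, 3 and 4 correlated with each other at 0.371 to 0.628. Before normalization its IUGR channel was the brighter one, with a log2 median signal ratio of 1.68, against -1.58, -2.42 and -1.55 on arrays 2, 3 and 4. With channel brightness as a covariate, the mean over the 3 alpha-defensins was 1.31 and that over the 5 tested granule and S100 genes was -0.0049, against 1.52 and 0.31 without it. Brightness mostly separates array 1 from arrays 2, 3 and 4, so in this fit brightness and the samples of array 1 cannot be told apart.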

How the data were processed

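The deposited scanner files hold intensity values, flags, gene names and probe coordinates. Per the file headers the scans were read by Agilent Feature Extraction 10.10.1.1 (protocol GE2_1010_Sep10), and coordinates are rn4. Per the submitters' processing notes limma was used, with no version. A deposited table gives 1 log2 ratio for each spot. Its row identifiers followed the row position in the scanner files: joined so, it correlated with loess ratios without background correction at r of 0.986 to 0.998 per array, in the direction Cy5 over Cy3, whereas joined by feature number r with the raw ratios was -0.0065 to 0.057.

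Mean signals were corrected with normexp (offset 50), loess normalized, averaged by probe and turned to IUGR over control in R 4.3.3 with limma 3.58.1. Spots with an outlying local background (222, 44, 145 and 52 on arrays 1 to 4) were given the array's median background. Levels are separate-channel values after Aquantile normalization. The fit held a dye term, and Benjamini-Hochberg adjusted p under 0.05 was a call. A gene was read from its brightest probe on average, and 20183 genes or unnamed probes passed the filter. The number of arrays, 4, limits precision. All 9 genes are named. From each list the 3 tested genes with the highest mean intensity are named, with Prtn3, Ctsg and the other alpha-defensins added after their values were seen. Likeness names the 5 highest r. Members and lists were chosen with earlier results of these data known. The fit was tested on simulated data. Alternatives are in the closing section.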

Additional observations from a re-analysis of the deposited data

Results flagged for a closer look

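In 42 groups of 4 values (IUGR levels, control levels and array ratios of 14 genes), 5 had a highest or lowest value far from the others by Dixon's ratio, where chance gives about 1 in 20. Mpo stood at 7.54 in IUGR replicate 2, against 6.40 in the next sample, and at 7.54 in control replicate 1, against 6.18. Both are the samples of array 1. Defa11 stood at 8.68 in IUGR replicate 2, against 6.99 in the next IUGR sample. The ratio of array 1 was -1.07 for S100a8, against 1.09 on the next array, and -1.19 for S100a9, against 0.96.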

How the results depend on the processing

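The mean log2 ratio of the 3 alpha-defensins was 1.52. Of 14 alternatives other than leaving out an array, 6 could not move it by construction (array weights, no dye term, the replicate block, both other filters and the mean over probes). Under the other 8 it ranged from 1.29 with median centring to 1.65 with Agilent's processed signals. With 1 array left out, the dye term gives the lone array of its orientation as much weight as the other 2 together. That estimate ranged from 1.26 to 1.78, and the plain mean of the remaining arrays from 1.04 (without array 4) to 1.99 (without array 1). The mean over the 5 tested granule and S100 genes was 0.31. It ranged from -0.0049 with channel brightness as a covariate to 0.41 with processed signals, and with 1 array left out the dye-term estimate ranged from 0.019 (without array 2) to 0.60 (without array 1). The plain means were 0.63, 0.24, 0.19 and 0.16 without arrays 1 to 4. S100a9 alone was -0.048 with the brightness covariate. With the replicate block, which paired samples of the same number across arrays, the means were 1.52 and 0.31 and 0 genes were called. The separate pairs differed. IUGR minus control was -2.12 for Defa10, -2.44 for Defa5 and -2.54 for Np4 in replicate 1. In replicates 2 to 4 it was 1.09 to 3.74 for these genes. Deviations of same-numbered samples from their group means correlated at r of -0.055, -0.29, 0.084 and -0.17. Samples that shared an array correlated at 0.329, 0.0857, 0.103 and 0.279 (arrays 1, 2, 3 and 4 by control replicate 1, 2, 3 and 4). Same-numbered samples never shared an array, so these values cannot decide whether the numbers pair the samples. The deposited value table gave 1.58 and 0.37.

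No gene was called between IUGR and control, except 15 with median centring and 7 with the brightness covariate, all lower in IUGR and none of them among the 9. Median centring also called 2 genes for dye orientation. Mpo, near background, was 0.084 and moved to 0.92 with median centring, 0.28 with a normexp offset of 0, 0.26 with processed signals and 0.24 with the deposited table. Its dye-term estimate was 0.017 without array 2. Lcn2 moved to -0.68 with median centring. Keeping outlying backgrounds as measured gave 1.34 and 0.20. On array 3 this raised the normexp noise estimate from 3.01 to 486 in Cy5 and from 1.1 to 871 in Cy3. Without the outlying backgrounds, 2755 genes had an unadjusted p under 0.05, and with them kept 1487. Leaving out arrays 1 to 4 in turn gave 6237, 939, 469 and 2171. Depth is not defined for arrays. Ltf, and Mpo outside array 1, were limited by signal over background. The causes of the other moves were not tested.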
